A study of Homo sapiens with 10 samples.

Results

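The Mediator complex was described here through the transcripts of its 33 subunit genes in CCAR1 knockout and parental RPE p53-/- cells. The members were chosen by name, as the rows of the deposited gene table that carry the symbol of a Mediator subunit. All 33 were among the 62700 genes of that table, and all 33 passed the filter on low counts that left 18979 genes for testing. Poly(A)-selected RNA was sequenced from 5 samples of CCAR1 knockout RPE p53-/- cells and from 5 samples of parental RPE p53-/- cells. Both groups are a human line labelled as retinal pigment epithelium, and both were grown in the same serum-containing medium. The labels do not say whether the knockout cells are a single clone or whether replicates are separate cultures. The p-values below therefore refer to the spread among the samples sequenced, part of which may be technical, and a genotype difference can hold anything else by which the populations of cells differ.

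Mediator is a large assembly that carries signals from DNA-bound activators to RNA polymerase II at promoters. Its head and middle modules contact the polymerase, its tail binds most activators, MED14 joins these modules, and a separable kinase module built from CDK8 or CDK19, cyclin C, MED12 and MED13 reversibly caps the complex and hinders its contact with the polymerase. CCAR1 is known as a coactivator that binds Mediator and helps bring it to genes controlled by nuclear receptors, hormone-regulated transcription factors.

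The deposited values are estimated counts per gene, and levels are given in CPM, counts scaled to a common library total. Libraries fell into a shallow set, replicates 1 to 3 of both genotypes, and a deep set, replicates 4 and 5 of both. Totals (M, mega counts) were 52.6 to 56.4 M in the shallow knockout libraries and 320.6 to 324.8 M in the deep ones, against 57.3 to 65.2 M in the shallow parental libraries and 327.1 to 385.4 M in the deep ones. CCAR1 itself, on chromosome 10, had 92.3, 95.6, 88.5, 125.7 and 125.5 CPM in knockout replicates 1 to 5, against 125.4, 132.6, 134, 173.1 and 173.4 CPM in parental replicates 1 to 5. The knockout values were lower within each set of libraries and overlapped over all of them, with a log2 fold change of -0.48 (SE 0.14, edgeR adjusted p = 0.0201). CCAR1 transcripts were thus still counted in the knockout libraries, and counts per gene do not show whether a transcript is edited. Of 12 markers of retinal pigment epithelium, 8 averaged under 1 CPM: RPE65 averaged 0.0251 CPM in knockout cells and 0.0561 CPM in parental cells, and TYR was likewise near 0, while MITF averaged 38.3 CPM in knockout cells and 39.1 CPM in parental cells. The epithelial keratins KRT8 and KRT18 were well counted, at 160.2 and 182.7 CPM in knockout cells and 175 and 216.5 CPM in parental cells, whereas CDH1 and EPCAM averaged under 1 CPM in both. OTX2 averaged 16.6 CPM in knockout cells and 10.95 CPM in parental cells. The 12 pigment epithelium markers summed to 54.7 to 57.9 CPM in shallow and 70.1 to 70.4 CPM in deep knockout libraries, against 51.2 to 52.8 CPM in shallow and 61.2 to 62.9 CPM in deep parental libraries, higher in knockout at each depth. This sum does not describe each marker, since OTX2 averaged higher in knockout cells while MITF and RPE65 averaged lower. Transcripts of skeletal muscle were counted in the shallow libraries of both genotypes: 7 markers summed to 242.8 to 502.8 CPM in shallow and 23.5 CPM in deep knockout libraries, against 355.3 to 525.6 CPM in shallow and 9.69 to 9.79 CPM in deep parental libraries. The 7 liver markers summed to 61.9 to 108.5 CPM in shallow and 3.17 to 3.19 CPM in deep knockout libraries, against 38.9 to 109.5 CPM in shallow and 1.91 to 2.45 CPM in deep parental libraries. The 5 erythroid markers summed to 22.1 to 181.7 CPM in shallow and 0.170 to 0.190 CPM in deep knockout libraries, against 22.8 to 102.9 CPM in shallow and 0.196 to 0.204 CPM in deep parental libraries. The part of any of these marker lists in the Mediator results was not tested.

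Mediator transcripts differed in both directions, with more of them lower than higher in the knockout cells. By edgeR's quasi-likelihood test at an adjusted p under 0.05, 13 of 33 subunits were lower (39.4%), against 16.9% of all genes tested. Another 4 of 33 were higher (12.1%), against 19.7% of all genes tested, and 16 did not pass. Together 17 of 33 were called (51.5%), against 36.6% of all genes. The median log2 fold change was -0.27 over the 33 subunits and 0.017 over all genes tested. The lower subunits were CDK19, CCNC and CDK8 of the kinase module, MED1, MED4, MED9, MED21 and MED31 of the middle, MED17 and MED22 of the head, MED23 and MED24 of the tail, and MED30 at the boundary of head and tail. The higher ones were MED7, MED29, MED12 and MED18, each from a different module. In bulk samples, fewer cells that make a transcript and less of it per cell cannot be told apart.

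The knockout and parental values did not overlap for 15 subunits (45.5%), 4 higher and 11 lower, against 30.6% of all genes tested (16% higher and 14.6% lower). CCNC and MED23 passed the test although their 2 sets of values overlapped. Within the shallow and within the deep libraries separately, 4 subunits were higher and 18 lower without overlap (66.7%), against 53.9% of all genes (27.1% higher and 26.9% lower).

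**Figure D1:**
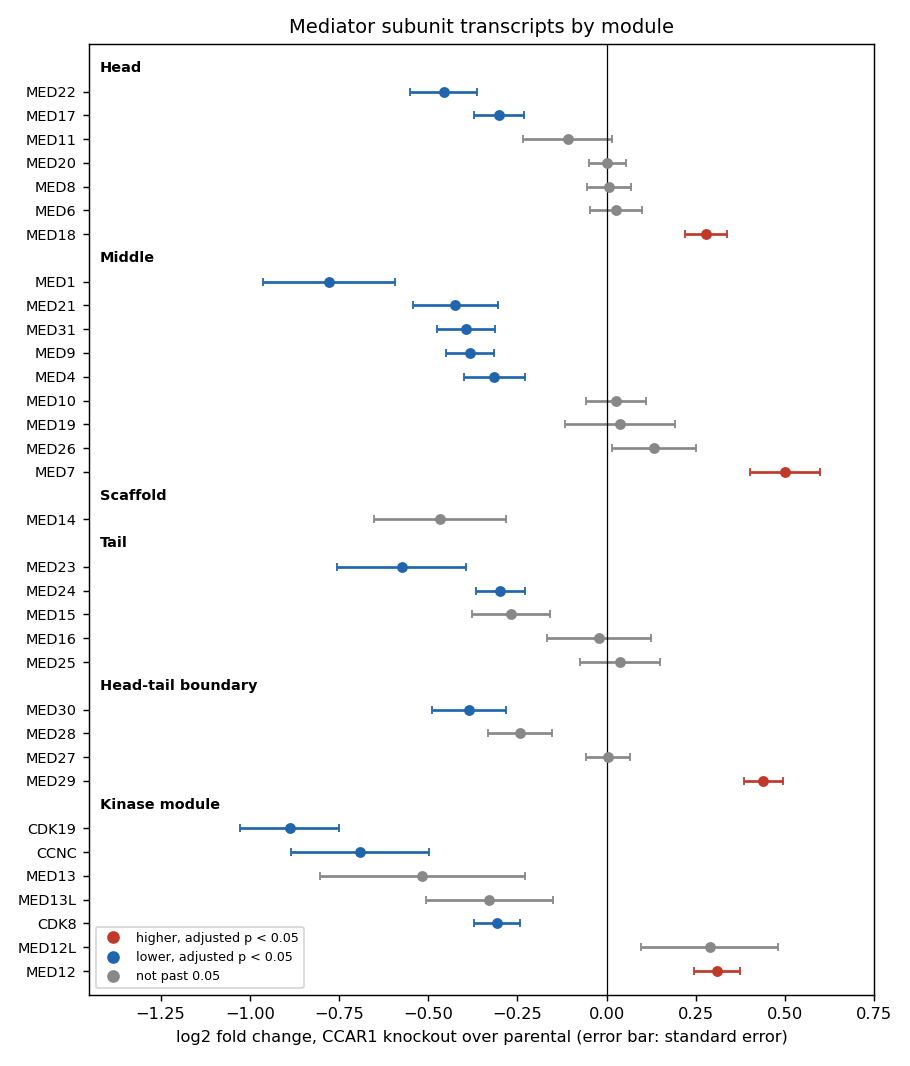
Log2 fold change of each of the 33 Mediator subunit transcripts in CCAR1 knockout over parental cells, grouped by module; points are estimates, bars are standard errors, and colour gives the edgeR call at an adjusted p of 0.05. CDK19 is the lowest at -0.89 and MED7 the highest at 0.50, and the 4 higher calls (MED7, MED29, MED12, MED18) come from 4 modules.

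The kinase module held the subunit with the lowest log2 fold change. Of its 7 transcripts, 3 were lower, 1 was higher and 3 did not pass, with a median log2 fold change of -0.33. CDK19, a cyclin C-dependent kinase that takes the place of its paralog CDK8 in some complexes, had 12.1, 11.1, 10.3, 15.2 and 15.4 CPM in knockout replicates 1 to 5, against 23.3, 21.4, 20, 27.3 and 27.1 CPM in parental replicates 1 to 5. Every knockout value was below every parental value, and the knockout mean was 53.9% of the parental mean (log2 fold change -0.89, SE 0.14, edgeR adjusted p = 6.14e-04). CDK8 had 20.1, 20.5, 18.3, 20.6 and 19.4 CPM in knockout replicates, against 24.0, 22.5, 23.9, 26.5 and 25.4 CPM in parental replicates. The CDK8 groups did not overlap either, and the change was smaller, with a log2 fold change of -0.31 (SE 0.065, edgeR adjusted p = 0.00377).

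CCNC, which encodes the cyclin that activates both kinases, had 26.4, 27.6, 26.5, 39.1 and 39.9 CPM in knockout replicates 1 to 5, against 39.5, 44.9, 41.9, 65.0 and 66.1 CPM in parental replicates 1 to 5. Its deep libraries were higher than its shallow ones in both genotypes, so the pooled values touch, while knockout values were lower within each set. The log2 fold change was -0.69 (SE 0.19, edgeR adjusted p = 0.0174). An annotated antisense gene shares 528 exonic bases with CCNC. Whether counting used strand is not stated, so reads that fall within the shared bases may not be told apart.

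MED12, which activates the kinase through cyclin C, went the other way. It had 58.7, 55.4, 56.8, 63.0 and 66.8 CPM in knockout replicates, against 49.7, 49.6, 49.3, 47.7 and 46.5 CPM in parental replicates. All knockout values lay above all parental values (log2 fold change 0.31, SE 0.065, edgeR adjusted p = 0.00376). Its paralog MED12L was scarcely counted, at 0.707, 0.943, 0.916, 1.22 and 1.17 CPM in knockout replicates, against 0.693, 0.601, 0.813, 0.997 and 0.951 CPM in parental replicates. The MED12L groups overlapped, and its log2 fold change of 0.29 did not pass (SE 0.19, edgeR adjusted p = 0.285).

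MED13, the subunit that tethers the kinase module to the rest of Mediator, had 32.9, 27.9, 26.3, 57.3 and 58.1 CPM in knockout replicates, against 43.1, 47.0, 44.0, 79.1 and 76.7 CPM in parental replicates. Its paralog MED13L had 41.5, 35.4, 34.4, 57.2 and 61.1 CPM in knockout replicates, against 52.2, 49.98, 53.7, 67.3 and 65.4 CPM in parental replicates. For both genes the deep libraries were higher than the shallow ones, and the knockout values were lower within each set but overlapped over all libraries. Neither passed the test, with log2 fold changes of -0.52 for MED13 (SE 0.29, edgeR adjusted p = 0.199) and -0.33 for MED13L (SE 0.18, edgeR adjusted p = 0.185). With the replicate number as a block both passed, at edgeR adjusted p = 3.97e-05 for MED13 and 0.00169 for MED13L.

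**Figure D2:**
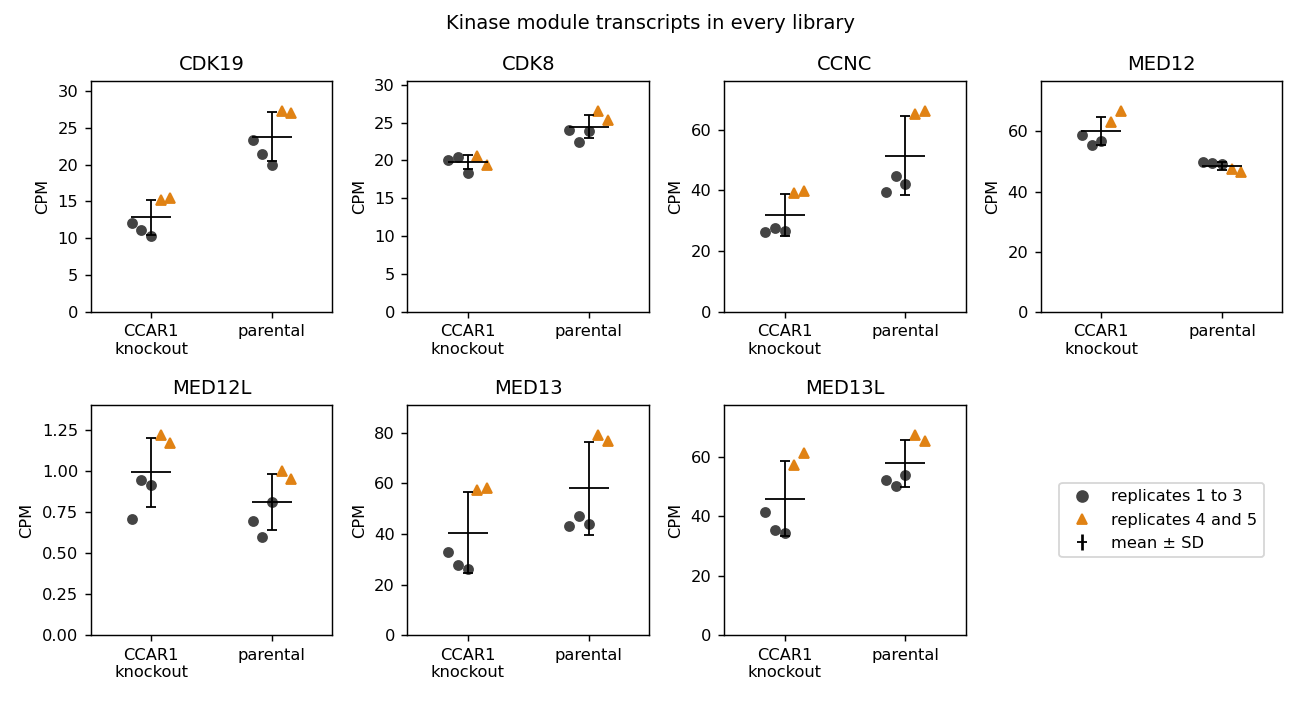
CPM of the 7 kinase module transcripts in each library, CCAR1 knockout on the left and parental on the right of each panel; circles are replicates 1 to 3, triangles replicates 4 and 5, and lines give the mean ± SD. CDK19 and CDK8 are lower and MED12 is higher in knockout cells without overlap, while MED13 and MED13L overlap between genotypes and are higher in replicates 4 and 5 of each.

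A ratio taken within a library needs no scaling between libraries, so the 3 paralog pairs of the module were also compared as log2 ratios of counts. CDK8 over CDK19 was 0.73, 0.88, 0.83, 0.44 and 0.33 in knockout replicates 1 to 5, against 0.041, 0.073, 0.26, -0.040 and -0.093 in parental replicates 1 to 5. The ratio averaged 0.64 ± 0.24 in knockout cells and 0.048 ± 0.13 in parental cells (SD, n = 5 each), with no overlap. The difference of 0.59 had an exact two-sided permutation p of 0.00794, the smallest that the arrangements of 5 against 5 samples allow, or 0.0238 adjusted over the 3 pairs. The difference was 0.69 in replicates 1 to 3 and 0.45 in replicates 4 and 5. Counts of these paralogs may exchange reads in the estimation, so the size of the ratio is uncertain.

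MED13 over MED13L averaged -0.23 ± 0.18 in knockout cells and -0.038 ± 0.26 in parental cells (SD, n = 5 each), a difference of -0.19 that did not pass (exact two-sided permutation p = 0.183, 0.274 adjusted). When arrangements were limited to libraries of the same depth, the p was 0.0167, the smallest that 120 arrangements allow, or 0.025 adjusted over the 3 pairs. MED13 lies on chromosome 17 and MED13L on chromosome 12, where protein-coding genes had median log2 fold changes of -0.28 and -0.072. The ratio was not adjusted for these chromosome-wide values, and their part in it was not tested. MED12 over MED12L averaged 5.94 ± 0.25 in knockout cells and 5.92 ± 0.33 in parental cells (SD, n = 5 each), a difference of 0.018 (exact two-sided permutation p = 0.905).

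**Figure D3:**
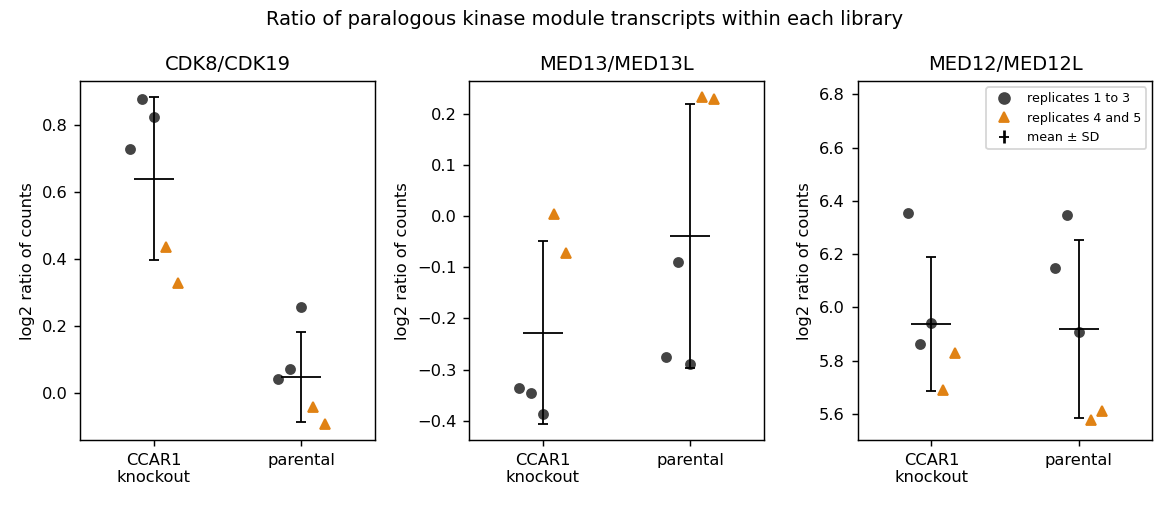
Log2 ratio of counts of CDK8 over CDK19, MED13 over MED13L and MED12 over MED12L within each library, CCAR1 knockout left and parental right; circles are replicates 1 to 3, triangles replicates 4 and 5, lines the mean ± SD, and the vertical axes differ and do not start at 0. The CDK8/CDK19 ratio lies above 0.32 in every knockout library and below 0.26 in every parental library.

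Promoter windows are shown side by side for transcripts that moved in opposite directions, with MED18 left out of the 4 subunits that rose. The windows are those of CDK19 and CDK8, which both fell, of their cyclin, and of MED12, MED29 and MED7, which rose. Each is the stretch of 150 bases before an annotated RefSeq start on GRCh38.p14, 5′ to 3′ on the gene's own strand, and capitals mark matches on either strand to GGGCGG (the SP1-type GC box), CCAAT (NF-Y), CCGGAAGT (ETS) or TTTCCCGC (E2F). None of the matches in these 6 windows overlap each other. The windows lie at chr6:110815856-110816005, minus strand for CDK19, chr13:26253979-26254128, plus strand for CDK8, chr6:99568815-99568964, minus strand for CCNC, chrX:71118446-71118595, plus strand for MED12, chr19:39391228-39391377, plus strand for MED29 and chr5:157142866-157143015, minus strand for MED7. For CDK19, CCNC and MED7, which have further annotated starts, the first window is shown.
CDK19: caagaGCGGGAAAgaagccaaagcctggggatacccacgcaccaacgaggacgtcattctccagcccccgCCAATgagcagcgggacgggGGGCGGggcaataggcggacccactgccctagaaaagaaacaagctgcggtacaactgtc
CDK8: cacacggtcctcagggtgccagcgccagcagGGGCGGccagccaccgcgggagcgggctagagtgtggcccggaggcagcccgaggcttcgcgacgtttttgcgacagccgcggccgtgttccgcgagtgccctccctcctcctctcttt
CCNC: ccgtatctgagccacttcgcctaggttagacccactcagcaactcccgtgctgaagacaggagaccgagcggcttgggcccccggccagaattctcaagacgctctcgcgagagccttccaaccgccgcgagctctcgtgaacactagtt
MED12: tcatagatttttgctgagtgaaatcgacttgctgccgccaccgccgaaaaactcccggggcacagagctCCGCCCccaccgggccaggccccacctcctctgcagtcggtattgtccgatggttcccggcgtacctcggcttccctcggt
MED29: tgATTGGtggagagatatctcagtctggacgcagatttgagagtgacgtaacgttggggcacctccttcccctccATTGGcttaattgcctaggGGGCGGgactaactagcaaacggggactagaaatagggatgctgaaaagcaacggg
MED7: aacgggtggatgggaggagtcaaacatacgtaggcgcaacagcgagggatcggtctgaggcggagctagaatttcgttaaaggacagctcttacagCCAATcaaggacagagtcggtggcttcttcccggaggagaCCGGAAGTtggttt
The CDK19 window holds 1 E2F, 1 CCAAT and 1 GC box match, whereas that of CDK8 holds 1 GC box only and that of CCNC holds none of the motifs searched. MED29, which rose, holds 2 CCAAT matches and 1 GC box, so both directions of change occur among windows with CCAAT and GC boxes. RefSeq windows of 25 of the 33 subunits were used, 30 windows in all. MED30 was among the subunits not included, so the shares of subunit windows below do not cover it. The windows of all genes were not restricted to match. A subunit without a window here may still have an annotated start. GGGCGG occurred in 56.7% of the 30 windows and in 36.8% of 35116 windows of all genes, CCAAT in 30% and 23.5%, and CCGGAAGT in 16.7% and 2.98%. The ETS match was in windows of MED7, MED15, MED17 and MED18, of which MED7 and MED18 rose, MED17 fell and MED15 did not pass the test. The 2 MED7 windows overlap and share their CCAAT and ETS sites, so these sites are counted in both windows. TATAAA was in none of the Mediator windows and in 6.71% of all windows. TTTCCCGC occurred in 6.67% of the 30 windows and in 0.869% of all windows. The other motifs searched on both strands were the NRF1 motif, AAGATGGC (YY1), TGACGTCA (CRE), CACGTG (E-box) and TTTGGCGC (E2F), each in at most 1 of the 30 windows and in 0.359% to 4.57% of all windows. A match is a description of the sequence, and its absence says only that these letters are not in the window.

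The middle module, which runs along the face of the polymerase, had 5 lower, 1 higher and 3 uncalled transcripts among 9, with a median log2 fold change of -0.31. MED1, the subunit that nuclear receptors bind through LXXLL motifs, had 49.6, 46.2, 42.6, 70.8 and 74.0 CPM in knockout replicates, against 83.5, 84.7, 83.7, 118.1 and 116.3 CPM in parental replicates. The groups did not overlap, and the log2 fold change was -0.78 (SE 0.19, edgeR adjusted p = 0.00749). MED9, which in yeast pairs with Med4, had 13.6, 15.5, 15.6, 13.2 and 13.7 CPM in knockout replicates, against 18.1, 18.7, 19.0, 18.3 and 19.3 CPM in parental replicates, and again did not overlap (log2 fold change -0.38, SE 0.067, edgeR adjusted p = 0.00119). MED9 did not pass with the median of its chromosome subtracted.

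MED31 had 8.39, 8.22, 7.99, 6.97 and 6.69 CPM in knockout replicates, against 9.65, 10.04, 9.88, 10.17 and 10.49 CPM in parental replicates. All knockout values were lower (log2 fold change -0.39, SE 0.081, edgeR adjusted p = 0.00327), although MED31 shares 1227 exonic bases with TXNDC17 on the opposite strand and did not pass with its chromosome's median subtracted. MED7, which in yeast holds the middle module together through Med21 and Med31, was the subunit with the highest log2 fold change. It had 11.2, 11.6, 12.4, 13.4 and 13.8 CPM in knockout replicates, against 7.75, 9.01, 7.82, 9.76 and 9.80 CPM in parental replicates, without overlap (log2 fold change 0.50, SE 0.097, edgeR adjusted p = 0.00233). The genes of Med21 and Med31 thus moved the other way: MED21 averaged 27.5 ± 4.04 CPM in knockout cells and 36.9 ± 4.70 CPM in parental cells (SD, n = 5 each; log2 fold change -0.42, edgeR adjusted p = 0.0172). MED4 averaged 20.9 ± 1.49 CPM in knockout cells and 26.0 ± 2.74 CPM in parental cells (SD, n = 5 each; log2 fold change -0.31, edgeR adjusted p = 0.0157). Like MED31, MED4 did not pass with its chromosome's median subtracted. MED10, MED19 and MED26, the last a docking site for elongation factors, had log2 fold changes of 0.026, 0.037 and 0.13 and did not pass.

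MED14, the backbone that links head, middle and tail, did not pass in the comparison of all libraries. It averaged 74.4 ± 19.1 CPM in knockout cells and 103 ± 19.9 CPM in parental cells (SD, n = 5 each; log2 fold change -0.47, SE 0.19, edgeR adjusted p = 0.0745). Its knockout values were lower within the shallow and within the deep libraries, and with the replicate block its edgeR adjusted p was 1.36e-05. Without knockout replicate 4 or 5 it was also called lower, with a smallest edgeR adjusted p of 0.0336.

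In the head module, 2 of 7 transcripts were lower, 1 was higher and 4 did not pass. MED22, which in yeast pairs with Med11, had 73.5, 71.8, 74.2, 59.7 and 59.8 CPM in knockout replicates, against 101.3, 96.3, 99.5, 83.0 and 85.1 CPM in parental replicates. The groups did not overlap (log2 fold change -0.46, SE 0.093, edgeR adjusted p = 0.00305). MED17, the central subunit of the head, averaged 40.8 ± 2.67 CPM in knockout cells and 50.2 ± 3.43 CPM in parental cells (SD, n = 5 each; log2 fold change -0.30, edgeR adjusted p = 0.00651), and it shares 2156 exonic bases with a gene annotated on the same strand. MED18 had 21.8, 21.1, 20.2, 20.2 and 19.9 CPM in knockout replicates, against 16.5, 18.0, 15.9, 16.95 and 17.6 CPM in parental replicates. All of its knockout values were higher (log2 fold change 0.28, SE 0.059, edgeR adjusted p = 0.0037), while MED20, with which it forms a dimer in yeast, averaged 20.6 ± 0.849 CPM in knockout cells and 20.6 ± 0.252 CPM in parental cells (SD, n = 5 each; log2 fold change 0.0018, edgeR adjusted p = 0.986). MED6, MED8 and MED11 had log2 fold changes of 0.026, 0.0065 and -0.11 and did not pass.

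In the tail, 2 of 5 transcripts were lower and 3 did not pass. MED23, which binds the activator ELK1, averaged 16.6 ± 4.30 CPM in knockout cells and 24.7 ± 4.16 CPM in parental cells (SD, n = 5 each; log2 fold change -0.57, SE 0.18, edgeR adjusted p = 0.0301). Its call was lost without knockout replicate 1, 2 or 3 or parental replicate 4 or 5, with edgeR adjusted p up to 0.0705. MED24 averaged 67.4 ± 4.40 CPM in knockout cells and 82.9 ± 5.25 CPM in parental cells (SD, n = 5 each; log2 fold change -0.30, edgeR adjusted p = 0.00607), and was at -0.016 with its chromosome's median subtracted. MED15, a target of SREBP activators, had a log2 fold change of -0.27 that did not pass (edgeR adjusted p = 0.0814, and 9.82e-05 with the replicate block), and 8 annotated pseudogenes carry its name. MED16 and MED25 had log2 fold changes of -0.020 and 0.037 and did not pass. MED25 is a partner of ETS activators of the ETV family.

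Between head and tail lie MED27, MED28, MED29 and MED30, of which 1 was higher, 1 was lower and 2 did not pass. MED29 had 82.5, 81.3, 78.2, 78.5 and 79.8 CPM in knockout replicates, against 63.9, 58.7, 56.0, 57.6 and 59.0 CPM in parental replicates. The groups were apart, with the smallest adjusted p of the 33 subunits (log2 fold change 0.44, SE 0.0545, edgeR adjusted p = 1.21e-04). MED30 averaged 10.2 ± 1.51 CPM in knockout cells and 13.3 ± 0.805 CPM in parental cells (SD, n = 5 each; log2 fold change -0.39, edgeR adjusted p = 0.0133). MED27 had a log2 fold change of 0.0043, and MED28 one of -0.24 that did not pass (edgeR adjusted p = 0.0572, and 2.69e-04 with the replicate block).

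Levels between subunits can be compared only per length, here as CPM per kilobase of annotated exon. MED10 was highest at 50.4 CPM per kb in knockout cells and 49.5 in parental cells, followed by MED15 at 38.2 in knockout cells and 45.9 in parental cells. MED12L was lowest, at 0.0868 CPM per kb in knockout cells and 0.0710 in parental cells. CDK19 stood at 2.01 CPM per kb in knockout cells and 3.73 in parental cells, and CDK8 at 6.47 in knockout cells and 8.01 in parental cells. Exons of 18 subunits overlap an exon of another annotated gene, which leaves their levels uncertain.

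Of the 13 subunits that fell, 9 lie on 3 chromosomes whose genes were lower at their median in the knockout cells. The median log2 fold change of protein-coding genes was -0.32 on chromosome 6, -0.41 on chromosome 13, -0.28 on chromosome 17 and 0.17 on chromosome 19. Of the 33 subunits, 12 lie on chromosomes 6, 13 and 17, and 9 of these 12 were lower, namely CDK19, CCNC and MED23 on 6, CDK8 and MED4 on 13, and MED1, MED9, MED24 and MED31 on 17. Of the 21 subunits elsewhere, 4 were lower and 4 were higher. These 3 chromosomes hold 36.4% of the subunits, against 12.9% of all tested protein-coding genes. Of the protein-coding genes on these 3 chromosomes 44.5% were called lower, against 15.8% elsewhere. Chromosome 7, with a median log2 fold change of -0.30, carries no subunit and is part of that elsewhere. With chromosome 7 added, the share of all tested protein-coding genes is 17.5%, and that of the subunits stays at 36.4%. With the median of each chromosome subtracted from the knockout libraries, 6 subunits were lower and 5 higher, 33.3% of the 33 against 33.5% of all genes tested (13.5% lower and 20% higher), and their median log2 fold change was -0.10.

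CDK19 remained lower after this subtraction, with a log2 fold change of -0.57 (edgeR adjusted p = 0.00967), as did MED22, MED17, MED21 and MED30, and MED15 was newly called lower. CCNC had a log2 fold change of -0.37 (edgeR adjusted p = 0.18) and MED1 one of -0.50 (edgeR adjusted p = 0.0634), so neither passed, but both did with depth as a further term in the same fit (edgeR adjusted p = 1.75e-06 for CCNC and 2.46e-07 for MED1). MED23 (log2 fold change -0.25, edgeR adjusted p = 0.335) also lost its call and regained it with the depth term (edgeR adjusted p = 8.53e-04). MED9 (-0.10, edgeR adjusted p = 0.299), MED31 (-0.11, edgeR adjusted p = 0.34) and MED24 (-0.016, edgeR adjusted p = 0.902) lost theirs in both fits. MED4 and CDK8 turned to log2 fold changes of 0.097 and 0.10 and passed in neither fit. MED7, MED12, MED18 and MED29 remained higher, and MED20, on chromosome 6, was called higher by 0.32 on the log2 scale (edgeR adjusted p = 8.23e-04). CCAR1 had a log2 fold change of -0.31 after the subtraction (edgeR adjusted p = 0.121, and 1.6e-06 with the depth term). With that term, 15 subunits were lower and 5 higher, against 61.8% of all genes called (28.3% lower and 33.5% higher). What underlies the chromosome-wide values was not tested.

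**Figure D4:**
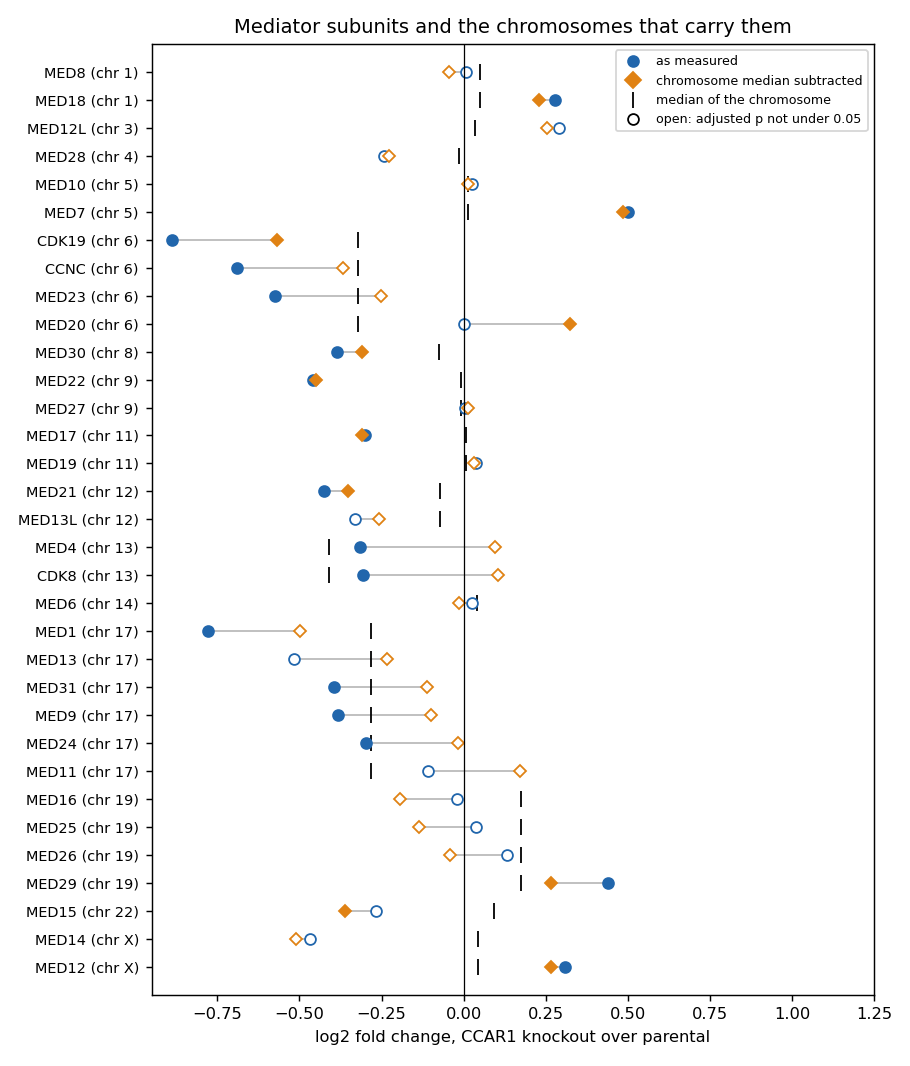
Log2 fold change of each subunit, CCAR1 knockout over parental, as measured (circles) and with the median of its chromosome subtracted (diamonds); vertical ticks mark that median, and open symbols did not pass an adjusted p of 0.05. Subunits on chromosomes 6, 13 and 17 move to the right after the subtraction, CDK19 to -0.57, MED4 and CDK8 to 0.10.

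The genotype changes were also compared between the shallow and the deep libraries. CDK19 had log2 fold changes of -0.96 in replicates 1 to 3 and -0.84 in replicates 4 and 5. MED1 had -0.87 in replicates 1 to 3 and -0.71 in replicates 4 and 5, and MED29 had 0.43 and 0.42 in the same order. MED12 had 0.19 in replicates 1 to 3 and 0.44 in replicates 4 and 5, and its test of that difference had the smallest edgeR adjusted p of the subunits, 0.076. The difference between the 2 sets passed edgeR's test at an adjusted p under 0.05 for 0 of 33 subunits, against 0.601% of all genes tested. At an unadjusted p under 0.05 it passed for 9 of 33. The share of all genes at that threshold was not counted, so the 9 cannot be read as particular to Mediator. The level of a subunit itself also differed between the sets, from 0.90 on the log2 scale for MED13, higher in the deep libraries, to -0.43 for MED16 and MED19. Across the 33 subunits, Spearman's rho was 0.563 between exon length and the deep minus shallow level and -0.266 between exon length and the genotype change. Over the 18040 tested genes with a length the same values were 0.338 and -0.165, and all of these describe genes measured in the same libraries. The part of transcript length in the genotype changes was not tested.

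With the replicate number as a block, 18 subunits were lower and 4 higher (66.7%), against 61.2% of all genes tested (30.1% lower and 31.1% higher). MED13, MED13L, MED14, MED15 and MED28 joined those lower. With depth as a term in place of the block, 18 were lower and 5 higher (69.7%), against 64% of all genes (31.3% lower and 32.7% higher), and MED12L joined those higher. Replicates 1 to 3 alone gave 18 lower and 5 higher (69.7%), against 52.7% of the 18806 genes tested there (26.2% lower and 26.5% higher). Replicates 4 and 5 alone gave 24 lower and 5 higher (87.9%), against 57% of the 26859 genes tested there (28.1% lower and 28.9% higher). The filter on low counts was applied anew in each set, so the share of genes called in replicates 4 and 5 covers a larger gene set than the other fits. DESeq2 on all libraries gave 16 lower and 4 higher, against 41.3% of all genes called (20.8% lower and 20.5% higher), and limma-voom gave 13 lower and 4 higher, against 38.1% (17.6% lower and 20.6% higher).

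**Figure D5:**
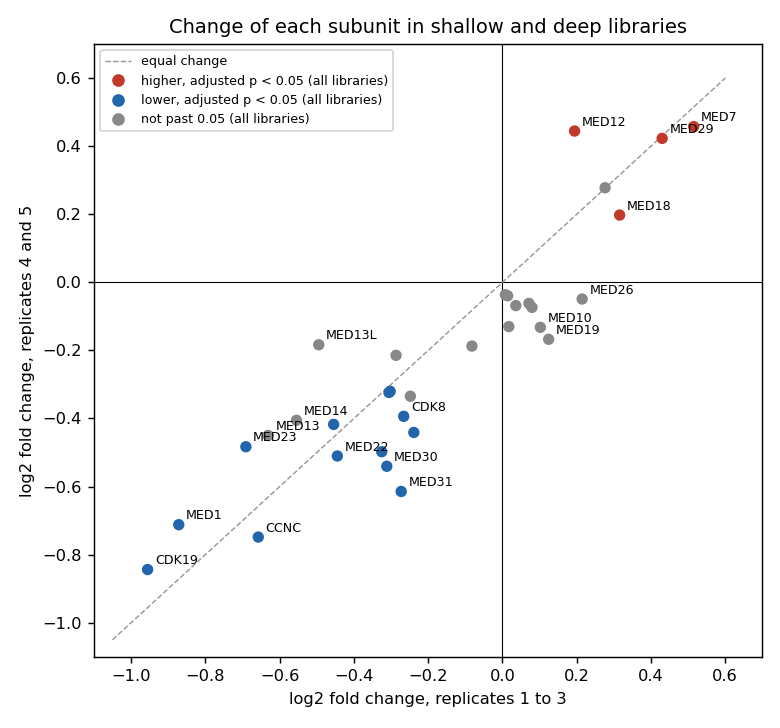
Log2 fold change of each subunit, CCAR1 knockout over parental, in replicates 1 to 3 (horizontal axis) and in replicates 4 and 5 (vertical axis); colour gives the call over all libraries and the dashed line marks equal change. CDK19 lies at -0.96 and -0.84, MED12 at 0.19 and 0.44, and every subunit called over all libraries has the same sign on both axes.

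Genes of the proteins with which Mediator works at promoters were counted in the same way. Of 90 genes of RNA polymerase II, the general factors, the TFIID subunits, the pausing and elongation factors and the activators that bind Mediator, 16 were lower and 4 higher (22.2%), against 36.6% of all genes. Their median log2 fold change was -0.10. With the replicate block, 41 were lower and 17 higher (64.4%), against 61.2% of all genes. Of 12 polymerase subunits, 2 were lower and the other 10 did not pass, while the block gave 5 lower and 2 higher. POLR2A, the catalytic subunit, averaged 237.9 ± 8.05 CPM in knockout cells and 315.3 ± 11.3 CPM in parental cells (SD, n = 5 each; log2 fold change -0.41, edgeR adjusted p = 1.16e-04), and POLR2D of the polymerase stalk had a log2 fold change of -0.31.

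Of 18 general transcription factor genes, 3 were lower and 1 was higher, and 9 and 4 with the block. TBP, which binds the TATA box, averaged 11.5 ± 0.635 CPM in knockout cells and 16.9 ± 0.857 CPM in parental cells (SD, n = 5 each; log2 fold change -0.56), and GTF2F2 of TFIIF had a log2 fold change of -0.60. CCNH, the cyclin of the TFIIH kinase, rose by 0.28 on the log2 scale. Of 15 TFIID subunit genes, 6 were lower, with log2 fold changes of -0.49 for TAF3 and -0.61 for TAF8, and 1 was higher, TAF7, at 0.39; the block gave 9 lower and 3 higher. TBP and TAF8 lie on chromosome 6, GTF2F2 on 13 and POLR2A on 17. With chromosome medians subtracted, POLR2A (log2 fold change -0.12, edgeR adjusted p = 0.0835) and GTF2F2 (-0.19, edgeR adjusted p = 0.118) no longer passed, though both did with depth as a further term (edgeR adjusted p = 0.0105 for POLR2A and 0.00192 for GTF2F2), while TBP (-0.23, edgeR adjusted p = 0.0177) and TAF8 (-0.29, edgeR adjusted p = 0.0209) passed in either fit.

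Among 21 pausing and elongation genes, 2 were higher and 1 was lower, and 4 and 7 with the block. MLLT3, which encodes AF9 of the super elongation complex, averaged 13.4 ± 1.67 CPM in knockout cells and 7.27 ± 1.07 CPM in parental cells (SD, n = 5 each; log2 fold change 0.88, edgeR adjusted p = 2.66e-04). NELFCD of the pausing factor NELF rose by 0.24 on the log2 scale, and SUPT4H1 of DSIF fell by 0.30; with chromosome medians subtracted neither passed, at 0.16 (edgeR adjusted p = 0.0566) for NELFCD and -0.016 (edgeR adjusted p = 0.882) for SUPT4H1. NELFCD passed with the depth term (edgeR adjusted p = 0.00143) and SUPT4H1 did not (0.735). Among 24 genes of activators that bind Mediator, 4 were lower and the other 20 did not pass, while the block gave 11 lower and 4 higher. ETV4, an ETS activator, averaged 25.5 ± 3.29 CPM in knockout cells and 39.5 ± 3.12 CPM in parental cells (SD, n = 5 each; log2 fold change -0.63), and THRB, a thyroid hormone receptor, had a log2 fold change of -0.71 at levels of 1.87 CPM in knockout cells and 3.06 CPM in parental cells.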

How the data were processed

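Poly(A) RNA was sequenced from 5 CCAR1 knockout and 5 parental samples, grouped by their titles. The authors deposited estimated counts (expected counts) per gene and library, made with kallisto 0.48.0 and hg38 per the submitters' processing notes. Neither the annotation release nor how transcripts were summed to genes is stated. Kallisto assigns ambiguous reads by likelihood, so paralogs and pseudogenes can exchange counts.

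Counts were rounded, filtered with filterByExpr by genotype (18979 of 62700 genes) and scaled by TMM. Genotype was tested in edgeR 4.0.16 (R 4.3.3) by quasi-likelihood, at 0.05 after Benjamini-Hochberg adjustment over all genes; the script was tested on simulated data. Paralog ratios, with 0.5 added to each count, used exact permutation. Positions (GENCODE 29, GRCh38) matched 95.1% of tested genes. The deep and shallow sets were found in the data. Pairs of libraries of 1 genotype and depth had a chi-square per gene of 6.95 to 26.5, above sampling noise, and were kept separate. edgeR's common biological coefficient of variation came to 0.31.

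Same-numbered samples deviated together over all libraries (correlations of 0.641, 0.586, 0.607, 0.897 and 0.892), but within a depth they did not (-0.059 to 0.000655). Replicate numbers were therefore not taken to pair samples beyond their depth, and the block is an alternative fit. The block is printed beside subunits and lists whose calls or counts it changes. Values per sample were planned for the 4 subunits with the smallest adjusted p in each direction and for the paralogs; those of CCNC and MED1 were added after their values were seen. From each other list the 2 genes with the smallest adjusted p in each direction are named. A further gene that the naming rule includes is not reported here. Members and lists were chosen with earlier results of these data known. Alternatives were other scalings and filters, DESeq2 1.42.0, limma-voom (limma 3.58.1), no robust step, the block, depth as a term or each depth alone, subtraction of chromosome medians, and each library left out; the subtraction with a depth term was added after the data were seen.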

Additional observations from a re-analysis of the deposited data

Results flagged for a closer look

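Of 66 groups of 5 samples tested, 2 held a library far from the other 4. Among samples of 1 kind, chance flags about 1 group in 20. Each group here held 3 shallow and 2 deep libraries, so that rate may not apply. In knockout cells, MED4 had 18.3 CPM in replicate 1 and 21.2 to 21.9 CPM in the others, a gap of 0.828 of the range of log2 CPM. In parental cells, MED10 had 60.7 CPM in replicate 1 and 54.7 to 55.9 CPM in the others, a gap of 0.801 of that range. Without knockout replicate 1, MED4 was still called lower.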

How the results depend on the processing

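The 13 lower and 4 higher subunits became 24 lower in replicates 4 and 5 alone and 6 lower with chromosome medians subtracted, the 2 settings that moved the count of lower subunits by over 1.5 times; leaving out 1 library gave 12 to 15 lower and 4 higher. The median log2 fold change was -0.22 with library size only, -0.21 in replicates 4 and 5, -0.10 with chromosome medians subtracted, -0.11 with depth as a further term, and -0.28 to -0.25 with 1 library left out. Machinery genes higher numbered 9 with library size only, 2 without a filter, 7 with 1 CPM in 5 libraries, 17 with the replicate block or depth as a term, 18 in replicates 1 to 3, 16 in replicates 4 and 5, 7 with chromosome medians subtracted, 20 with depth as well, and 3 to 7 with 1 library left out (7 without knockout replicate 5). Those lower numbered 10 without a filter, 41 with the block, 43 with depth as a term, with or without the subtraction, 38 in replicates 1 to 3, 54 in replicates 4 and 5, and 13 to 16 with 1 library left out. For library size only, no filter, 1 CPM in 5 libraries and 1 library left out, the share of all genes called was not counted. Counts in those settings therefore cannot be read as particular to the genes listed. The causes were not tested.

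Calls of MED21 and MED23 were lost with library size only, and those of MED18 and MED4 without a filter. MED23 also lost its call without knockout replicate 1, 2 or 3 or parental replicate 4 or 5. MED14 was called without knockout replicate 4 or 5, MED28 without either of these or parental replicate 1, and both, with MED15, by DESeq2. MED13/MED13L passed with arrangements within a depth (-0.19). MED12/MED12L was -0.081 in replicates 1 to 3 and -0.087 to 0.12 with 1 library left out.

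Apart from MED4 and CDK8, the sign changes were of subunits not called over all libraries. Their log2 fold changes were -0.0058 for MED6, -0.024 for MED8, -0.030 for MED20, -0.0045 for MED10 and -0.026 for MED27 with DESeq2, and -0.0033 for MED6, -0.022 for MED8, -0.027 for MED20, -0.0034 for MED10 and -0.025 for MED27 with its size factors. They were -0.0096 for MED8, -0.014 for MED20 and -0.011 for MED27 without a filter, -0.0017 for MED20 and -0.0057 for MED19 with limma-voom, and -0.00019 for MED20 with the block. MED16 was at 0.0088 with 1 CPM in 5 libraries, 0.030 with library size only and 0.017 in replicates 1 to 3. In replicates 4 and 5 the values were -0.062 for MED6, -0.068 for MED8, -0.036 for MED20, -0.13 for MED10, -0.17 for MED19, -0.049 for MED26, -0.074 for MED25 and -0.040 for MED27; of these MED8, MED10, MED19 and MED25 were called lower there (edgeR adjusted p = 0.0355, 1.67e-04, 4.18e-04 and 0.0119), and MED26 was called higher in replicates 1 to 3 (0.21, edgeR adjusted p = 0.0142). With chromosome medians subtracted they were -0.015 for MED6, -0.044 for MED8, 0.17 for MED11, 0.097 for MED4, -0.040 for MED26, -0.14 for MED25 and 0.10 for CDK8, and with depth as well -0.017 for MED6, -0.048 for MED8, 0.16 for MED11, 0.095 for MED4, -0.063 for MED26, -0.15 for MED25 (called, edgeR adjusted p = 0.00672) and 0.10 for CDK8. With 1 library left out, MED6 ran from -0.015 to 0.058, MED8 from -0.032 to 0.027, MED20 from -0.025 to 0.0091, MED10 from -0.028 to 0.067, MED19 from -0.068 to 0.12, MED16 from -0.10 to 0.049, MED25 from -0.023 to 0.093 and MED27 from -0.032 to 0.019. MED12L rests on 34 to 418 counts per library.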
